A study of Homo sapiens with 30 samples.

Results

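H3K27me3 peaks that were called after depletion of either LINC00641 or SETD5-AS1, and not in control cells, were examined in HEK293T cells. A member was a peak of the ΔLINC00641 list on chromosomes 1 to 22 that overlapped a ΔSETD5-AS1 peak by at least 1 bp and no peak of the negative control list (NC). The rule chose 7579 of the 58801 ΔLINC00641 peaks on these chromosomes (12.9%), and the whole ΔLINC00641 list held 86099 peaks. The members were thus selected on the called positions of the peaks in all 3 H3K27me3 lists. Presence in a list, width, strength and distance to NC peaks are therefore descriptions of the members, given with no test.

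HEK293T is a kidney-derived embryonic line in which the large T antigen of SV40 is expressed. It was transfected with an antisense oligonucleotide (ASO) against LINC00641 or SETD5-AS1, or with a negative control ASO, and were crosslinked after 48 hours. Each group had 3 ChIP replicates and 3 input replicates, but the replicates were merged before peaks were called, so each group gives a single list and no value has an error between replicates. The track lines of the lists name a single ASO for LINC00641 and a single one for SETD5-AS1, so an effect of the lncRNA and an effect of that ASO cannot be told apart. All groups were the same cell line at the same time point. H3K9me3 lists from NC and from cells depleted of LINC00662 were used only to ask where members overlap the other mark.

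H3K27me3 is laid down by Polycomb repressive complex 2, in which EZH2 or EZH1 transfers the methyl groups and EED and SUZ12 are required partners. CBX proteins of Polycomb repressive complex 1 bind the mark. The mark covers CpG-rich promoters of silent developmental genes, and it also spreads at lower density over long stretches of inactive chromatin between and within genes. A peak caller can break such a stretch into many short peaks with unmarked gaps between them.

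The sequence under members ranged from CpG-rich promoters to CpG-free introns. Members were ranked by the smaller −log10 q-value of the member and of its strongest ΔSETD5-AS1 partner. Below are windows of hg19, + strand, that reach 75 bases to either side of the ΔLINC00641 summit, with CpG dinucleotides in capitals. The first 4 are members at promoters, the next 2 are the highest-ranked members over 100 kb from any NC peak, and the last 2 are high-ranked members beside NC peaks. They are shown because these are the kinds of location that the results turn on.
SAMD14 promoter member, chr17:48206726-48206876: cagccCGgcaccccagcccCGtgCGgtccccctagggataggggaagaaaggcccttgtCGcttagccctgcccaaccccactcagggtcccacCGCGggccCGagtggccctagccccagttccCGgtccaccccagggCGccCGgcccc
SEMA7A promoter member, chr15:74725050-74725200: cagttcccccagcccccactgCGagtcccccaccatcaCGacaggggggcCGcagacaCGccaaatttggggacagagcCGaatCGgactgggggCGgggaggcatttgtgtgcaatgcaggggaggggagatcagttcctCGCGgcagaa
RASGEF1A promoter member, chr10:43724579-43724729: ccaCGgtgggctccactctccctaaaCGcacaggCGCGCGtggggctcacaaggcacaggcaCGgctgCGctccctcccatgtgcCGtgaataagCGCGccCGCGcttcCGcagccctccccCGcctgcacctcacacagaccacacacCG
ACADL promoter member, chr2:211089505-211089655: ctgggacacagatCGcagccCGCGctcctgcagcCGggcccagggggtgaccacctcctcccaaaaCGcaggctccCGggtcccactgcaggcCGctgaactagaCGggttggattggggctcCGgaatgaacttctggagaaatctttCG
SHISA2 intron member, chr13:26624468-26624618: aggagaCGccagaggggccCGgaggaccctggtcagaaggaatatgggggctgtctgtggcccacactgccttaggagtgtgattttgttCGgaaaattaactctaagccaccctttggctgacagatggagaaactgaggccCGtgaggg
intergenic member near SLC44A5, chr1:75659962-75660112: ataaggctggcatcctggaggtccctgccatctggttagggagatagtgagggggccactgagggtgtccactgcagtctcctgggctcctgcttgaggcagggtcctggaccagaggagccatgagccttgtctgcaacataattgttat
SV2B intron member, chr15:91683857-91684007: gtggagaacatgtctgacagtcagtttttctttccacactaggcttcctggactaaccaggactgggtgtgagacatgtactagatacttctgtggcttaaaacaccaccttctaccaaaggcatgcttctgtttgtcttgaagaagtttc
intergenic member near THSD7B, chr2:137214998-137215148: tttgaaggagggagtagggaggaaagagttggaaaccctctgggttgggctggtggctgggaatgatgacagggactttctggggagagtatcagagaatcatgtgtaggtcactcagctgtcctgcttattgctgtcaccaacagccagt

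The SAMD14, SEMA7A, RASGEF1A and ACADL windows held 10, 9, 15 and 10 CpG dinucleotides at a GC content of 74.2, 64.9, 69.5 and 64.2%. The window in an intron of SHISA2 held 4 CpG dinucleotides, whereas the windows near SLC44A5, in SV2B and near THSD7B held 0. These windows are a choice. Those of the members beside NC peaks in DGKI, DNAH5 and TENM2, not printed here, held 3, 6 and 4. Promoter members were not all CpG-rich either, with a ratio of observed to expected CpG of 0.144 at HBD and 0.251 at PPP2R2B. Over all members the median ratio of observed to expected CpG was 0.186, and it was 0.212 for ΔLINC00641 peaks found in all 3 lists.

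Members were weak peaks. At the median member, 17 fragments covered the ΔLINC00641 summit, with a range of 11 to 124. The median fold enrichment over local input was 3.20 (quartiles 2.84 and 3.68, range 1.73 to 6.69) and the median −log10 q-value was 3.37. The 29391 ΔLINC00641 peaks found in all 3 lists had a median of 21 fragments and a fold enrichment of 3.60. The 12612 ΔLINC00641 peaks found in neither other list had a median of 16 fragments and a fold enrichment of 3.10. Members made up 16.5% of the weakest of 10 equal groups of ΔLINC00641 peaks by −log10 q and 2.76% of the strongest group. The genome-wide fragment level was 3.78 in ΔLINC00641, 4.43 in ΔSETD5-AS1 and 3.85 in NC. Among the 2608 members at the genome-wide level of input, the lowest summit held 11 fragments and the median 16, and the NC peaks at that level also started at 11 with a median of 16. The NC fragment number at member sites was not analysed here, since a peak list holds no value where no peak was called.

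The partners in ΔSETD5-AS1 were similar in strength. They had a median of 19 fragments, a fold enrichment of 3.13 and a width of 523 bp, and 7438 members had a single partner. Member and partner shared a median of 303 bp, and their summits lay a median of 162 bp apart. In 81.7% of members the shared stretch was at least 50% of the shorter peak. The partner itself overlapped an NC peak for 1370 members (18.1%). In those cases the ΔSETD5-AS1 peak reached from an NC peak into the stretch where NC had none. The 6209 other members had a partner free of NC.

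The highest-ranked member lay at the promoter of SAMD14, which encodes a protein with a sterile alpha motif domain. It spanned 732 bp (chr17:48206394-48207125) with a GC content of 68.7%. Its summit held 49 fragments in ΔLINC00641 (95% exact Poisson interval 36.3 to 64.8) and 44 in ΔSETD5-AS1 (32.0 to 59.1), at a fold enrichment of 4.20 and 3.94. These intervals, like the other intervals given here, cover counting error only. The nearest NC peak was 71458 bp away. The local input at this member was 2.88 times the genome-wide level in ΔLINC00641 and 2.35 times in ΔSETD5-AS1.

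The members ranked next were unlike SAMD14 and lay beside NC peaks. The member in an exon of DGKI, a diacylglycerol kinase gene, held 28 fragments in ΔLINC00641 and 33 in ΔSETD5-AS1, and an NC peak with 19 fragments began 344 bp away. The member in an intron of SV2B, a synaptic vesicle gene, held 29 and 33 fragments, 486 bp from an NC peak of 25 fragments. In DNAH5, which encodes an axonemal dynein heavy chain, the member held 28 and 30 fragments, 262 bp from an NC peak of 21 fragments, and it also overlapped an H3K9me3 peak of NC. The member in TENM2, a teneurin gene of neuronal adhesion, held 25 and 26 fragments with input at the genome-wide level in both lists. The member in PAPPA, which encodes a protease of IGF-binding proteins, held 24 and 36 fragments. The remaining ones of the 8 highest lay between genes, 248493 bp from LRATD2 and 308042 bp from THSD7B. Apart from SAMD14, all of these 8 had an NC peak within 500 bp, and the widest gap was 486 bp. When members with a local input above 2 times the genome-wide level were set aside, SAMD14 was the only one of these 8 to leave, and a member 379429 bp from ZFAT took its place.

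The median width of members was 434 bp (quartiles 336 and 608, range 268 to 3168), and 389 members (5.13%) were wider than 1 kb. With a −log10 q of at least 5 in ΔLINC00641 alone the median was 515 bp. With that threshold in all 3 lists, 2549 peaks met the rule and their median was 830 bp. That setting drops weaker NC peaks first, so its peaks include some that overlap an NC peak and are not members. The median width of ΔLINC00641 peaks in all 3 lists was 743 bp, and members were narrower on 22 of 22 chromosomes. They were wider than ΔLINC00641-only peaks, at 363 bp, also on 22 of 22 chromosomes. ΔLINC00641 peaks shared with NC but not ΔSETD5-AS1 were close to the members, with a median of 432 bp. A wider peak has more bases with which to overlap another, so width is tied to the rule. The widest member, chr14:106376531-106379698, lay in an intron of the noncoding gene FAM30A and reached 28 fragments in ΔLINC00641 and 20 in ΔSETD5-AS1. The second, 2938 bp wide, lay on the same chromosome 117724 bp from TMEM121. The other 3 were 2492 bp near DUSP26, 2016 bp near CBLN1 and 2010 bp at the promoter of LRFN5. At LRFN5, a synaptic adhesion gene, only 391 bp of the member were shared with the ΔSETD5-AS1 peak, which was 405 bp wide.

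As the lists stand, more than 50% of members had an NC peak within 1 kb. The median gap was 776 bp (quartiles 359 and 1987), 4352 members (57.4%, Wilson 95% interval 56.3 to 58.5) had an NC peak within 1 kb and 87.4% had one within 5 kb. The share within 1 kb was 61.7% with a −log10 q of at least 5 in ΔLINC00641 alone and 41.5% when peaks within 1 kb were merged. It was 33.6% with the threshold in all 3 lists, where weaker NC peaks were dropped and could be overlapped. NC peaks stood within 5 kb on both sides of 55.9% of members and within 1 kb on both sides of 16.3%. In contrast, 378 members lay more than 20 kb and 137 (1.81%) more than 100 kb from any NC peak. The 12612 ΔLINC00641-only peaks had a median gap of 1620 bp, and 37.6% of them had an NC peak within 1 kb. At the edge of the rule, members in introns of LDB2 and of noncoding genes on chromosomes 5 and 14 touched an NC peak with a gap of 0 bp, with 16, 20 and 14 fragments. The 3 excluded peaks closest to the rule overlapped NC by 1 bp, with 18, 19 and 19 fragments.

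**Figure D1:**
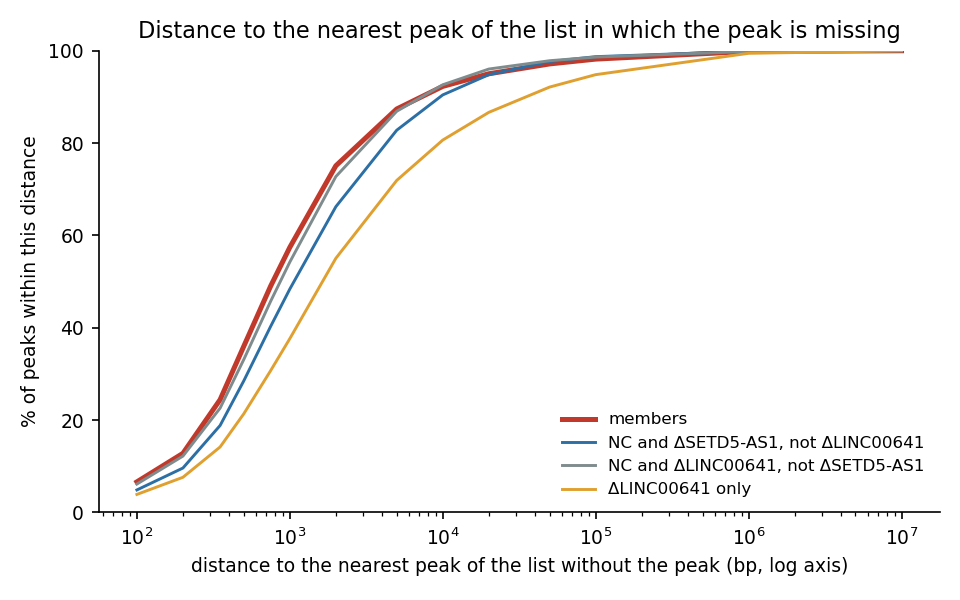
Cumulative share of peaks (y axis, %) within a given distance (x axis, bp, log scale) of the nearest peak of the list that lacks them, for the members, for the same rule with the lists exchanged, and for ΔLINC00641-only peaks (distance to NC). The curve of the members passes 57.4% at 1 kb, above 48.4% and 54.2% for the exchanged lists and 37.6% for ΔLINC00641-only peaks.

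The same rule was applied with the roles of the lists exchanged. When ΔLINC00641 was the list that lacked the peak, 11416 NC peaks met the rule, and 8981 did so when ΔSETD5-AS1 lacked it. Thus the 7579 members were fewer than the peaks obtained in both exchanges, but the source lists differed in size. The NC list held 73667 autosomal peaks and the ΔLINC00641 list 58801. Members were 12.9% of their source list, between the 15.5% and 12.2% of NC peaks in the exchanges, in the same order. With the other list of each pair as the source, the share was 11.1% for the members' rule, below 17.0% and 15.7% in the exchanges. Of the 20191 ΔLINC00641 peaks that overlapped no NC peak (34.3% of the list), 37.5% (36.9 to 38.2) were members. The corresponding shares were 32.0% (31.6 to 32.5) of NC peaks missing from ΔLINC00641 and 27.1% (26.6 to 27.5) of NC peaks missing from ΔSETD5-AS1. Counted from the other list of each pair the order was the reverse, with 28.1% of ΔSETD5-AS1 peaks missing from NC, 37.4% of ΔSETD5-AS1 peaks missing from ΔLINC00641 and 42.2% of ΔLINC00641 peaks missing from ΔSETD5-AS1. The 3 sets share lists and depths and carry no replicate error, so the difference in number was not tested. The median gap to the list that lacked the peak was 1064 bp and 867 bp in the exchanges. Those lists held 58801 and 68848 peaks, fewer than NC, and the part of list size in the gap was not tested.

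Members followed the density of the mark along the genome. Chromosome 5 held most, 1042, and chromosome 13 fewest, 25. Per Mb of known sequence the number ran from 0.262 on chromosome 13 to 6.47 on chromosome 16. As a share of ΔLINC00641 peaks it ran only from 10.8% on chromosome 7 to 15.6% on chromosome 6 (SD 1.31 percentage points over 22 chromosomes). Of 2897 windows of 1 Mb, 1081 held a member, and 142 windows (4.90%) held 50% of all members. For all autosomal ΔLINC00641 peaks, 130 windows held 50%.

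**Figure D2:**
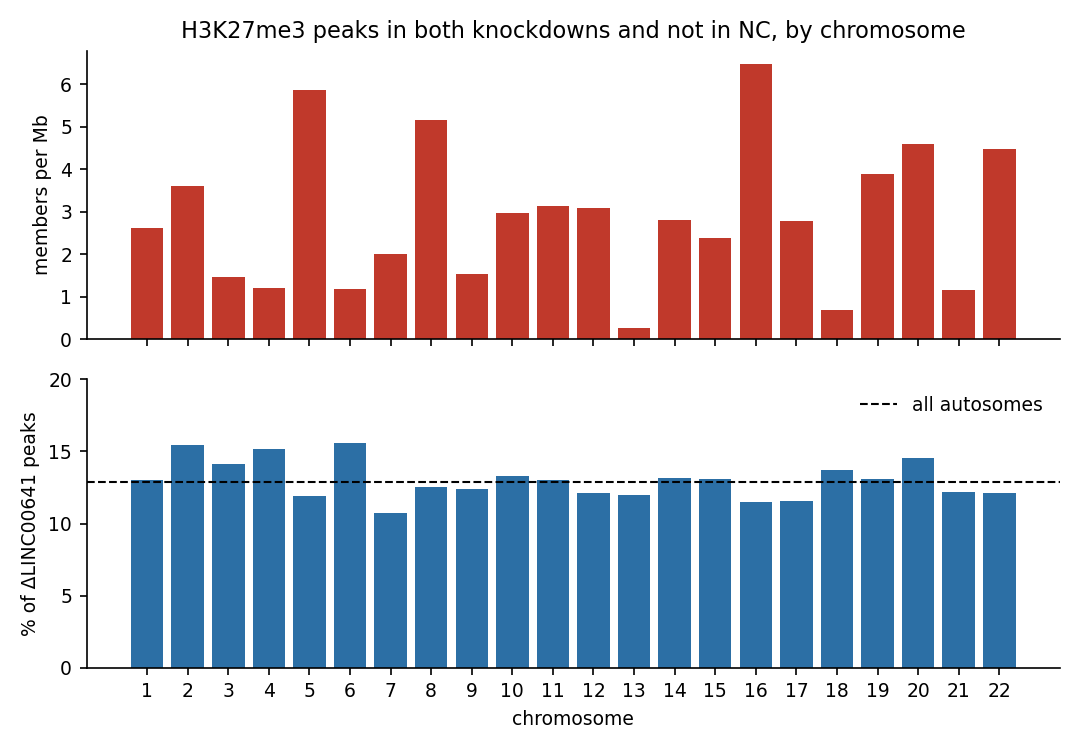
Members per Mb (upper panel) and members as a share of ΔLINC00641 peaks in % (lower panel) on chromosomes 1 to 22, with the share over all autosomes as a dashed line. The number per Mb ranges from 0.262 to 6.47, whereas the share stays between 10.8% and 15.6%.

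The densest window was at 119 to 120 Mb of chromosome 12 (chr12:119000001-120000000), with 50 members among 350 ΔLINC00641, 371 ΔSETD5-AS1 and 362 NC peaks. It holds SRRM4, a neuronal splicing factor gene, the small heat shock protein gene HSPB8 and CCDC60. The next, chr10:130000001-131000000, held 49 members beside 262 NC peaks and overlaps no protein-coding gene. The one at chr20:59000001-60000000 held 45 members beside 312 NC peaks and overlaps CDH4, which encodes R-cadherin. By contrast, 34 windows held a member and no NC peak, and they contained 39 members in all.

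Of the members, 2491 (32.9%) had their summit in the body of a protein-coding gene. The share was 34.3% for all autosomal ΔLINC00641 peaks and 35.8% for those in all 3 lists. The 5 genes with the highest numbers of members are given here. RBFOX1, a regulator of neuronal splicing (chr16:5289803-7763342), held 69 members beside 951 NC peaks. TENM2 held 46 members and 523 NC peaks. OPCML, a cell adhesion gene of the IgLON family, held 45 and 400. PTPRT, a receptor tyrosine phosphatase gene, held 42 and 385. ASIC2, which encodes an acid-sensing ion channel subunit, held 41 and 382. Each of these 5 genes is longer than 1 Mb and had between 317 and 784 ΔLINC00641 peaks.

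Of 19222 autosomal protein-coding genes, 719 (3.74%) had a member in the body or with its summit within 1 kb of a transcription start site, here called a promoter. Gene families were described by their symbols. Of 193 genes of potassium channels and neurotransmitter receptors, 37 (19.2%) had a member and 100 (51.8%) an NC peak, and members numbered 10.1 per 100 NC peaks, beside 10.2 over all genes. The highest-ranked were in introns of GRIK3, a kainate receptor gene (27 fragments in ΔLINC00641 and 37 in ΔSETD5-AS1), and of KCNQ3, which encodes a subunit of the M-current channel (23 and 28 fragments). Both lay within 500 bp of an NC peak. Over all genes, 12.4% had an NC peak. Of 86 protocadherin and cadherin genes, with a median length of 112.6 kb, 36 (41.9%) had an NC peak and 15 (17.4%) a member. CDH4 and CDH13 ranked highest. Of 398 olfactory receptor genes, 131 (32.9%) had an NC peak and 41 (10.3%) a member, 26 of them at the promoter. Their median length was only 1.97 kb. Members numbered 13.3 and 14.1 per 100 NC peaks in these families. The highest-ranked olfactory receptor member lay in OR9Q1 (24 and 27 fragments), followed by OR2Z1 (19 and 23). The summit in OR9Q1 was in an exon of that gene or of VN2R9P, which overlaps it there.

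Developmental transcription factor genes were counted in the same way. Of 158 homeobox genes, whose median length was 6.89 kb against 27.6 kb for all protein-coding genes, 27 (17.1%) had an NC peak and 2 (1.27%, Wilson interval 0.348 to 4.50) had a member, EMX1 and LHX1. The share over all genes, 3.74%, lies within this interval. The member at the promoter of EMX1, a regulator of cortical development, held 36 fragments in ΔLINC00641 and 30 in ΔSETD5-AS1. The member at LHX1, a LIM homeobox gene of kidney and head development, held 39 and 35 fragments and lay 158537 bp from NC peaks. Of 86 SOX, T-box, GATA and forkhead genes 1 (1.16%, 0.206 to 6.30) had a member, SOX21, in its exon, with 48 and 45 fragments, 571 bp from an NC peak of 58 fragments. Of 78 WNT, FGF, BMP and hedgehog genes 9 (11.5%) had a member, and of 31 Polycomb genes 0 did, where the Wilson interval reaches 11.0%.

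Members were found in 5 of 42 collagen genes (11.9%), 6 of 44 ADAMTS and ADAM protease genes (13.6%), 16 of 364 solute carrier genes (4.40%, 2.72 to 7.02) and 7 of 514 ZNF or ZFP zinc finger genes (1.36%), beside 3.74% over all genes. Collagen and protease genes were long, with median lengths of 133.5 and 92.2 kb, and held 14.5 and 12 members per 100 NC peaks. COL22A1 supplied both top members of the collagens, with 32 fragments in ΔLINC00641 at the first. SLC30A10, a manganese transporter gene, and SLC35F3 led the solute carriers with 26 fragments each in ΔLINC00641. The highest-ranked of the other families were in ADAMTS12 and ADAMTSL3, ZNF558 and ZNF385D, and FGF8 and WNT7A.

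By position, 49.1% of members had their summit in an intron, 44.5% between genes, 3.97% in an exon and 185 (2.44%, Wilson interval 2.12 to 2.81) at a protein-coding promoter. The last share was 4.82% with a −log10 q of at least 5 in ΔLINC00641. It was 4.39% with that threshold in all 3 lists, a set that includes peaks that overlap weaker NC peaks. The promoter share was 4.33% for ΔLINC00641 peaks in all 3 lists (4.10 to 4.57) and 2.70% for ΔLINC00641-only peaks (2.43 to 2.99). It was 2.51% (2.21 to 2.85) for ΔLINC00641 peaks shared with NC but not ΔSETD5-AS1, close to the members. Members had the lower promoter share on 21 of 22 chromosomes against the peaks in all 3 lists, and on 15 of 22 against ΔLINC00641-only peaks. The 185 promoter members lay at start sites of 185 genes, 0.962% of those annotated. Of these, 96 also had an NC peak that reached within 1 kb of a start site of their own, and 89 had none. The start site near the NC peak was not always the one with the member. A wider gene-level count took any peak that reached within 1 kb of a start site, with no need for peaks to overlap. Of 18893 genes, 122 (0.646%) had such a peak in ΔLINC00641 and ΔSETD5-AS1 but not in NC. The number was 81 (0.429%) for NC and ΔSETD5-AS1 but not ΔLINC00641, and 144 (0.762%) for NC and ΔLINC00641 but not ΔSETD5-AS1.

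Among the 15 promoter genes ranked highest, 6 had no NC peak at any start site. Besides SAMD14 these were SEMA7A, HBD, LRFN5, FGF8 and KRTAP13-4. SEMA7A encodes a membrane-anchored semaphorin, and its member held 50 fragments in ΔLINC00641 (37.1 to 65.9) and 48 in ΔSETD5-AS1 (35.4 to 63.6), 132933 bp from NC. HBD encodes delta-globin. Its member held 25 fragments in either list, and an NC peak lay 865 bp away. LRFN5 held 32 and 33 fragments, and its nearest NC peak was 887764 bp away. FGF8, a fibroblast growth factor gene of early patterning, held 29 and 33 fragments. KRTAP13-4, a keratin-associated protein gene, held 21 and 22.

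The other 9 genes had an NC peak within 1 kb of a start site too, but not always the start site with the member. RASGEF1A, which encodes an exchange factor for Ras, held 36 fragments in ΔLINC00641 and 34 in ΔSETD5-AS1. Its nearest NC peak was 36157 bp from the member, at another start site. PPP2R2B, a regulatory subunit gene of protein phosphatase 2A, held 25 and 22 at the genome-wide input level. ACADL, which encodes long-chain acyl-CoA dehydrogenase, held 27 in either list. TLE2, a Groucho-family corepressor gene, held 35 in either list. At NFIA, a nuclear factor I gene, the member held 29 and 25 fragments and the ΔSETD5-AS1 partner overlapped NC. At RBFOX1 the member held 19 and 21 fragments, at a start site inside the gene, 4 bp from an NC peak. HPCA, the gene of the calcium sensor hippocalcin, held 32 and 39, PHYHIPL held 39 and 32, and IL15, a cytokine gene, held 47 and 48. In all 15 the counting intervals of the knockdown lists overlapped each other. Since these members were chosen by their calls in both lists, the overlap is tied to the choice and no separate evidence of agreement.

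**Figure D3:**
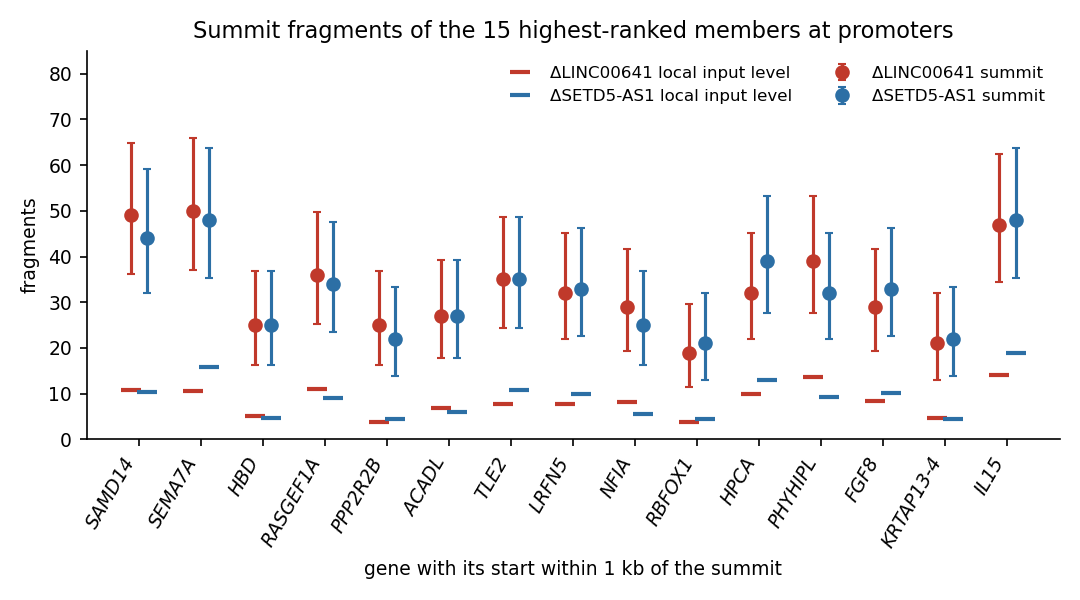
Fragments at the summit (points, with 95% exact Poisson intervals) and local input level (dashes, in fragments) of the 15 highest-ranked members at promoters in ΔLINC00641 (red) and ΔSETD5-AS1 (blue). The summits hold 19 to 50 fragments in ΔLINC00641 and 21 to 48 in ΔSETD5-AS1, and the local input level varies between genes, highest at IL15.

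Members far from NC peaks lay at promoters in a larger share of cases than the rest. The split at 100 kb was chosen after the values had been seen. Of the 137 members more than 100 kb away, 35 (25.5%, 19.0 to 33.4) were at a promoter, against 150 of the 7442 others (2.02%, 1.72 to 2.36). Their median GC content was 52.3%, against 47.1%. Their local input was above 2 times the genome-wide level in 34.3% (26.9 to 42.6), against 6.84% (6.29 to 7.44), and the part of input in the result was not tested. The promoter share over 100 kb was also the higher in each comparison set, but the exchanged lists differed from each other in its size. Of 123 NC peaks shared with ΔLINC00641 and over 100 kb from ΔSETD5-AS1, 34.1% were promoters (26.4 to 42.9), with a median GC content of 53.3% and an input above 2 times in 28.5%. Of 146 NC peaks shared with ΔSETD5-AS1 and over 100 kb from ΔLINC00641, 7.53% were (4.26 to 12.99), with 45.4% and 8.22%. Of 653 ΔLINC00641-only peaks over 100 kb from NC, 15.6% were (13.04 to 18.6). Within 100 kb the promoter shares of these sets were 2.25, 1.19 and 1.99%, in the same order.

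**Figure D4:**
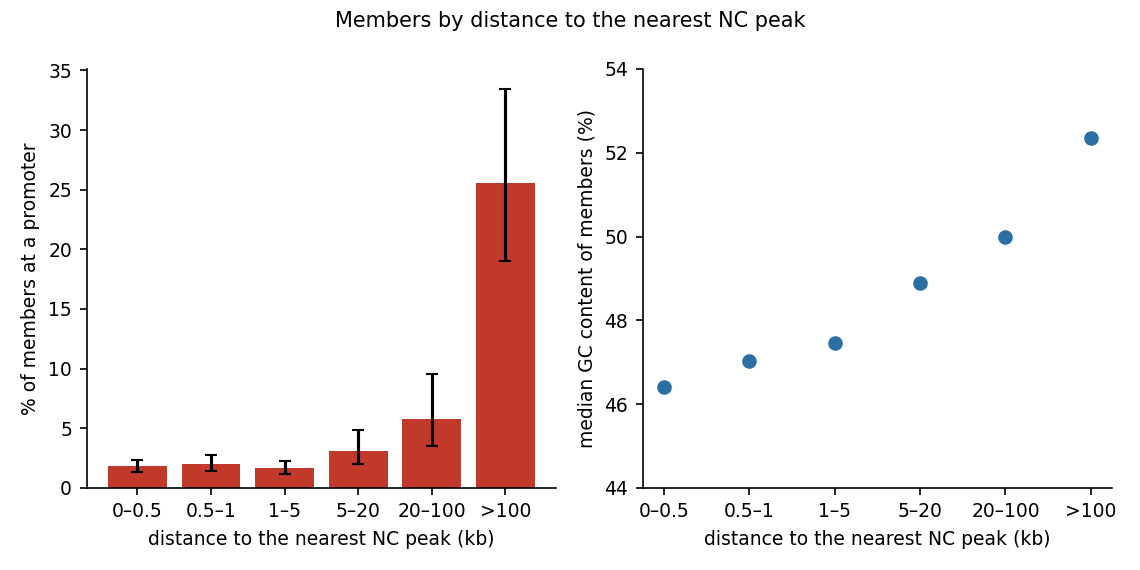
Share of members at a protein-coding promoter (left, %, with 95% Wilson intervals) and median GC content of members (right, %) in 6 classes of distance to the nearest NC peak (kb). The promoter share is 1.80% in the nearest class and 25.5% beyond 100 kb, and the median GC content goes from 46.4% to 52.3%.

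The highest-ranked distant member lay in SHISA2, whose product holds back WNT and FGF receptors, 1611 bp from its start (chr13:26624204-26624750). It held 46 fragments in ΔLINC00641 (33.7 to 61.4) and 38 in ΔSETD5-AS1 (26.9 to 52.2), at 2.85 and 2.33 times the genome-wide input. The next, 7777 bp from SLC44A5 (chr1:75659762-75660348), had input near the genome-wide level in both lists and held 23 and 24 fragments. Further distant members were at the promoters of ABCG1, a cholesterol exporter gene (41 and 31 fragments), PIANP (54 and 35), ITGA8, an integrin gene of kidney development (34 and 32), and DIRAS2, a small GTPase gene (25 and 20). A member 16854 bp from ZIC4 was 1680 bp wide and held 27 and 20 fragments. The 35 distant promoter members had a median of 29 fragments at a median input of 2.22 times the genome-wide level (range 1.02 to 4.29), and 20 of them exceeded 2 times. Among ion channel genes of this group, KCNK15 held 34 fragments in ΔLINC00641 and 38 in ΔSETD5-AS1, and TRPM3 held 19 and 14. SNCB, the gene of beta-synuclein, held 55 and 36, AXL, a receptor tyrosine kinase gene, held 23 and 24, and FSCN1, which encodes the actin-bundling protein fascin, held 39 and 26. These genes were named after their values were seen. In ΔSETD5-AS1 their −log10 q was 4.41 at KCNK15, 3.24 at FSCN1, 2.35 at AXL, 1.97 at TRPM3 and 1.76 at SNCB. The lowest value in that list was 1.30. By rank SNCB was only 6736 of 7579 members. Its fold enrichment in ΔSETD5-AS1 was 1.82, where input reached 4.37 relative to the whole genome. At DIRAS2 and KRTAP13-4 the input stayed below 1.5 times in both lists.

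In GC content members lay near the ΔLINC00641 peaks that overlap NC and above the NC-only peaks. The median was 47.2% for members, and it exceeded that of the 38610 ΔLINC00641 peaks that overlap NC by 0.0511 points. The difference was positive on 9 of 22 chromosomes, between −4.94 on chromosome 13 and 1.87 on chromosome 17. ΔLINC00641-only peaks had a median of 46.8%. NC-only peaks had a median of 43.0%, below the members on 22 of 22 chromosomes by 1.58 to 6.18 points. NC peaks shared with ΔSETD5-AS1 but not ΔLINC00641 had 44.6%, also below the members on 22 of 22 chromosomes. The other exchange was nearer to the members. NC peaks shared with ΔLINC00641 but not ΔSETD5-AS1 had 46.0%, and the ΔLINC00641 peaks of that set had 46.5%. When ΔLINC00641 peaks were split into 5 groups of equal size by GC content, members made up between 12.6% and 13.2% of each.

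**Figure D5:**
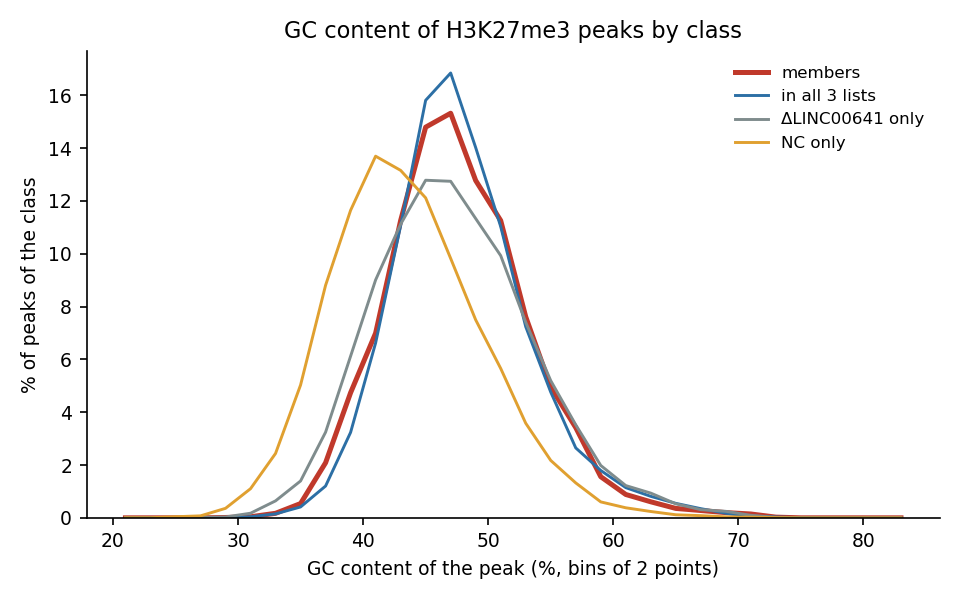
Distribution of GC content (x axis, %, bins of 2 points; y axis, % of the peaks of a class) for members, ΔLINC00641 peaks in all 3 lists, ΔLINC00641-only peaks and NC-only peaks. The curve of the members, with a median of 47.2%, lies over that of the peaks in all 3 lists, and the NC-only curve, with a median of 43.0%, lies to its left.

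Members were also set beside the NC peak next to them. For the 6623 members with an NC peak within 5 kb, the median GC content was 46.9%, against 45.5% for the nearest NC peak. Over whole lists the medians were 47.1% for ΔLINC00641 and 45.2% for NC peaks. The median paired difference was 1.45 points, 59.7% of members had the higher value, and the median was positive on 20 of 22 chromosomes, with chromosomes 13 and 18 as the exceptions.

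A minority of members overlapped the other repressive mark. An H3K9me3 peak of NC cells overlapped 644 members (8.50%, 7.89 to 9.15), against 14.7% of the ΔLINC00641 peaks in all 3 lists (14.3 to 15.1), and members were lower on 21 of 22 chromosomes. The share was 6.95% for ΔLINC00641-only peaks and 8.40% for ΔLINC00641 peaks shared with NC alone. For the latter, members were higher on 11 chromosomes and lower on 11. Peaks in all 3 lists were wider, and the part of width in the overlap was not tested. Among members the overlap was highest on chromosome 19, at 17.5%. With a −log10 q of at least 5 in ΔLINC00641 alone the share of members was 8.62%. With that threshold in all 3 H3K27me3 lists it was 15.4%, but that set includes peaks that overlap weaker NC peaks. With the H3K9me3 list of ΔLINC00662 cells, 7.92% of members overlapped.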

How the data were processed

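H3K27me3 ChIP-seq of HEK293T cells was represented by 3 peak lists (NC, ΔLINC00641 and ΔSETD5-AS1) and H3K9me3 by a further 2. Samples were grouped by title. By their methods, the authors removed adapters (cutadapt 3.3), aligned to hg19 (Bowtie2 2.4.2), dropped duplicates (GATK), pooled the 3 replicates per group and ran MACS2 2.2.7.1 on the pooled fragments with pooled input as control. The fold enrichment in each list is a ratio deposited by the authors. The authors also deposited a −log10 p-value and, as a score, the −log10 q-value of each peak. Merged calling leaves no replicate error, and a peak missing from a list may lie just under the threshold of the caller.

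Overlap required 1 bp. Fragments at a summit and the local input were solved from fold enrichment and p-value. Whole numbers (within 0.001) came out for all but 3, 1 and 2 peaks of the ΔLINC00641, ΔSETD5-AS1 and NC lists. GC content was taken from GRCh37, whose main chromosomes have hg19 coordinates, and genes from GENCODE 44 lifted to GRCh37. A promoter was within 1 kb of a protein-coding start. Counts carry 95% exact Poisson intervals and shares 95% Wilson intervals, which take peaks as independent. No comparison was tested, and the spread over 22 chromosomes is given instead. Named members are the 8 highest by the smaller −log10 q of both lists, overall and at low input, the 5 widest, the 15 promoter genes and 2 per family ranked highest, the 5 genes and 3 windows with most members, and the 3 nearest to each side of the rule. The distant members were chosen after their values were seen. The members and gene lists were chosen with earlier results of these data known. Alternatives were stronger peaks, larger overlap, merged peaks, removal of input-rich peaks, other partner rules and wider windows. Scripts ran in Python 3.11.15 with pysam 0.24.0, scipy 1.17.1, pandas 2.3.3 and numpy 2.4.6, and the functions were tested on simulated data.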

Additional observations from a re-analysis of the deposited data

How the results depend on the processing

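The number of members moved from 7579 to 1369 with a −log10 q of at least 5 in ΔLINC00641 alone, 2549 with that threshold in all 3 lists, 4669 when peaks within 1 kb were merged and 3227 without members that have an NC peak within 1 kb. In the same order, members were 7.51, 14.0, 12.04 and 5.49% of ΔLINC00641 peaks. The share was 14.4% with an overlap of at least 50%, 10.6% with a partner free of NC and 11.1% with ΔSETD5-AS1 peaks as members. The threshold in all 3 lists also drops weaker NC peaks, so the 2549 include peaks that overlap an NC peak. The promoter share moved to 4.82% and 4.39% under the thresholds, 3.22% without members near NC and 6.19% with 5 kb as the limit. The share with an NC peak within 1 kb became 61.7% and 33.6% under the thresholds, 68.5% with the larger overlap, 41.5% with merged peaks and 48.4% with a partner free of NC, and 87.4% within 5 kb. The overlap with H3K9me3 was 15.4% with the threshold in all 3 lists, 9.45% with the larger overlap and 9.51% with merged peaks. The median width became 515, 830, 471, 461 and 452 bp with the threshold in ΔLINC00641, in all 3 lists, the larger overlap, merged peaks and ΔSETD5-AS1 peaks as members. The difference in GC content from ΔLINC00641 peaks that overlap NC stayed within the SD over chromosomes, between −0.14 and 0.91 points. In all, 28 of 57 alternative values were counted as unchanged and 29 as moved. Shares were judged by their Wilson interval, and GC content and width by the SD over chromosomes. The number of members has no stated error, so its label rests on the size of the shift alone. The numbers counted as unchanged were 8484, 7599, 6209 and 7638. No paired analysis was possible because each list pools the replicates of its group, and for the same reason none could be left out. With a median summit of 17 fragments, a single weak member is imprecise.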

Other observations

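On chromosome X, which was not part of the rule, 4444 of 26965 ΔLINC00641 peaks overlapped a ΔSETD5-AS1 peak and no NC peak (16.5%), against 12.9% on chromosomes 1 to 22.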
